A study of Mus musculus with 12 samples.

Results

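The genes of fatty acid uptake, storage and oxidation were followed in mouse hearts that carried mutant IDH2. The list held 36 genes, and a member was measured where a probe set had that gene as its single symbol in the platform annotation, with the brightest probe set taken for each gene. This gave 34 members among 19937 genes measured in all. Acsl1, which activates long-chain fatty acids to acyl-CoA, had no probe set listed under its symbol, and Cpt1b, the muscle form of the outer carnitine palmitoyltransferase, was listed only on a probe set shared with another symbol, so neither has a value here.

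Heart RNA was labelled and hybridised to 12 1-colour Affymetrix arrays, 4 from control mice, 4 from mice with the R140Q form of IDH2 and 4 from mice with the R172K form. The strain of every group was a mix in which C57BL/6 mice were combined with 129/sv mice and with Balb/c mice. At 5 weeks of age the mutants were treated for 3 days with 2 mg of 4-hydroxytamoxifen, an estrogen receptor ligand that activates Cre fused to that receptor. The sources used here give neither the treatment of control mice nor the promoter behind the mutant allele, the sex or the age at collection, so drug and mutation cannot be told apart in a comparison with control. The labels call the arrays replicates without naming separate animals, so the p-values cover variation among arrays, which may be technical. IDH2 is the mitochondrial isocitrate dehydrogenase, and both substitutions, which lie in its active site, are known to let the enzyme make 2-hydroxyglutarate.

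The heart draws most of its energy from fatty acids. Fatty acids freed from lipoproteins by lipoprotein lipase enter the myocyte through CD36 and other transporters, are bound by cytosolic carriers, are activated to acyl-CoA, and are then either stored in lipid droplets or passed into mitochondria as acylcarnitines. Inside, the β-oxidation spiral shortens the chain by repeated dehydrogenation, hydration, dehydrogenation and thiolysis, and electron transfer flavoprotein carries the electrons of the first step to the respiratory chain. Many of these genes are under the nuclear receptor PPARα, and a fall of the programme is a familiar feature of the failing heart.

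Values are log2 of the deposited intensity, so a difference of 1 is a doubling of the signal. Levels of different genes are not compared, since probe sets differ in brightness. A gene was called where limma's two-sided p, adjusted by Benjamini-Hochberg over all 19937 genes, was under 0.05 in a fit of all 12 arrays. Groups are said not to overlap where every array of one lay above every array of the other.

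In R172K hearts 7 of the 34 members were called against control, 6 lower and 1 higher. The 6 that fell were Etfb, Echs1, Acads, Cpt2, Acot13 and Acadm, and the 1 that rose was Cpt1a. Over all genes 6.78% were called lower and 6.23% higher in that comparison, so 17.6% of members lower stood above the background share and 2.94% higher stood below it. That background includes many dim genes, while 33 of the members lay above the median brightness of all genes. A fit of the 9968 genes above that median called 27.8% of them, 1366 lower and 1407 higher. Of the 33 members it called 7, a smaller share than that, with 6 lower and 1 higher. The median log2 difference of the 34 members was -0.19, with 23 of them negative, against -0.0033 over all genes. That median rested on few arrays: it was -0.27 without array R172K 3 and -0.006 without array R172K 4. The count of calls was 3 without control 2, 4 without R172K 1, 4 without R172K 2 and 11 without R172K 3. Of all genes, 7.42%, 6.66%, 8.75% and 20.9% were called in either direction in those fits.

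In R140Q hearts none of the 34 members was called by limma against control, where 1.12% of all genes were called lower and 1.08% higher. At an unadjusted p under 0.05 there were 6 members, 5 lower and 1 higher, out of a background of 17% of all genes. The median difference was -0.19, with 29 of 34 members negative, against 0.003 over all genes. It was -0.29 without R140Q 2 and -0.11 without R140Q 3. A fit of only the control and R140Q arrays called 4 members, 3 lower and 1 higher, where 6.73% of all genes were called in either direction, and a fit that weighted the arrays by their spread called 4, all lower, where 8.28% were called. Leaving out single arrays gave 0 to 2 calls: 1 without R140Q 2, 1 without R172K 3 and 2 without R172K 4, where 2.22%, 5.09% and 4.93% of all genes were called. The groups share 1 estimate of the spread, so leaving out an R172K array changes that estimate but no R140Q difference from control. The median R140Q difference stayed at -0.19 without R172K 3 and without R172K 4. The R140Q count thus depends on the spread of the R172K arrays as well.

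Both mutants were set against the same 4 control arrays, so their differences from control are not independent of each other. At an unadjusted p under 0.05 the R172K comparison had 13 members, 10 lower and 3 higher, against 26.6% of all genes. Groups did not overlap for 1 higher and 8 lower members in R172K, where 7.47% and 8.72% of all genes did so, and for 1 higher and 5 lower members in R140Q, where the shares were 7.79% and 7.04%.

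**Figure D1:**
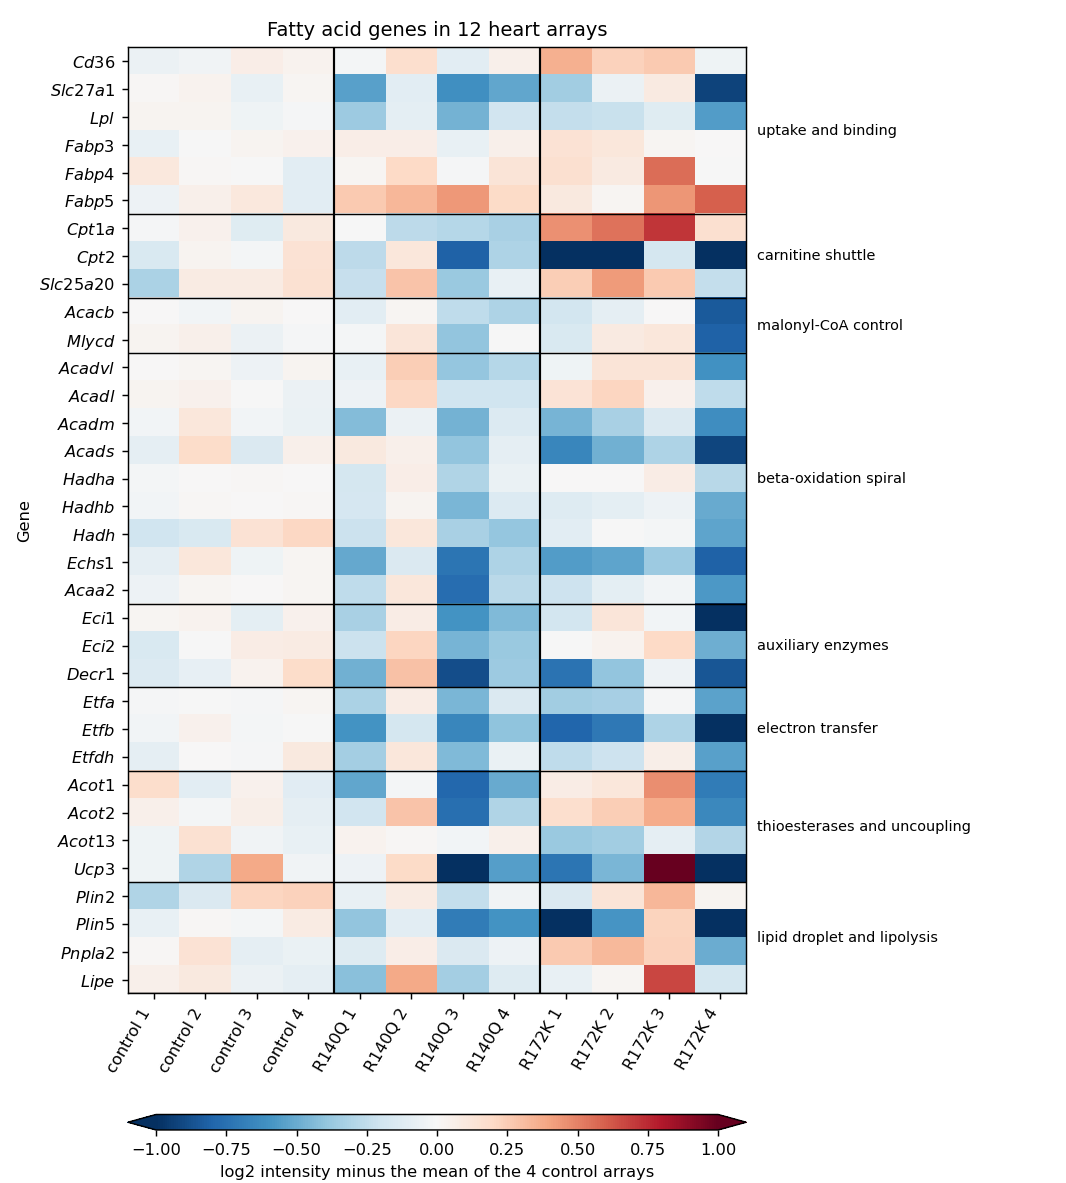
Heat map of log2 intensity minus the mean of the 4 control arrays for the 34 measured members (rows, grouped by role) in the 12 arrays (columns). Colours saturate at 1 log2 unit either way. The columns R140Q 3 and R172K 4 are blue over most rows, and the columns R140Q 2 and R172K 3 are not.

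**Figure D2:**
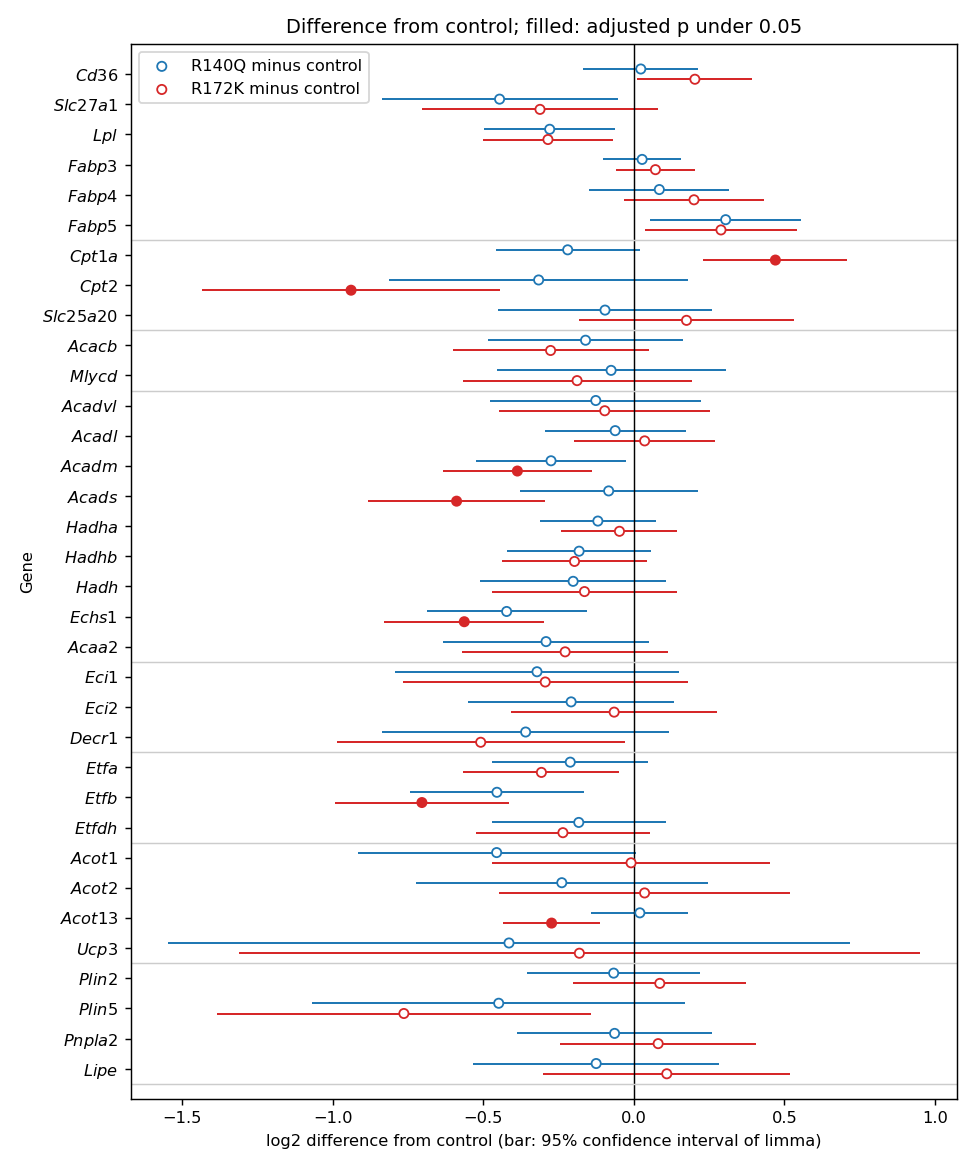
Difference from control of each member, in log2 units, for R140Q (blue) and R172K (red). Points are limma estimates, bars their 95% confidence intervals, and filled points passed an adjusted p of 0.05. Of the filled points, all in R172K, 6 lie left of 0 and 1, Cpt1a, lies right.

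The upstream sequences of the 4 members with the smallest adjusted p in R172K are shown because these genes carry the main calls: Etfb, Echs1 and Acads fell and Cpt1a rose. They are the 250 bases before the transcription start that RefSeq's table for GRCm38.p6 gives, 5′ to 3′ in the direction of the gene. For Etfb, Echs1 and Acads that start is the outer bound of the gene, while for Cpt1a it is a start inside the annotated gene, downstream of its first base. Capitals mark matches on either strand to a nuclear receptor half-site (AGGTCA), its direct repeat spaced by 1 base as PPAR binds it (AGGTCANAGGTCA), the element of estrogen-related receptors, ERR (TCAAGGTCA), the box of Sp-family factors known for its richness in G and C (GGGCGG), the box named CCAAT for its letters, or the box of core promoters read by the TATA-binding protein (TATAAA).
Etfb, chr7:43443822-43444071 (+ strand): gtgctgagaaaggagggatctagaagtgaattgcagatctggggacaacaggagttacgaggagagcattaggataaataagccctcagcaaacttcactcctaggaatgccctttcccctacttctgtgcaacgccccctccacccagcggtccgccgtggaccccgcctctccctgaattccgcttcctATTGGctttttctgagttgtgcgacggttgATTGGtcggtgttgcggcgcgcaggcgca
Echs1, chr7:140116422-140116671 (- strand): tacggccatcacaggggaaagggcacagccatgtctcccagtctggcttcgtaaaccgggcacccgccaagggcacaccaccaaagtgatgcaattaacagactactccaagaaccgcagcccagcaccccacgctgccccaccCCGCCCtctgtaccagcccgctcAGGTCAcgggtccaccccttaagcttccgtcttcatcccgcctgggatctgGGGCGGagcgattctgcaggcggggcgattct
Acads, chr5:115119347-115119596 (- strand): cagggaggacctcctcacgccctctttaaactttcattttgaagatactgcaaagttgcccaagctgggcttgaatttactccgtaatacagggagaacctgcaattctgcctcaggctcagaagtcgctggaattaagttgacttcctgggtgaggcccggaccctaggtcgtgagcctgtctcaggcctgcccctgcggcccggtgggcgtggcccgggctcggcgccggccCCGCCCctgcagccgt
Cpt1a, chr19:3323051-3323300 (+ strand): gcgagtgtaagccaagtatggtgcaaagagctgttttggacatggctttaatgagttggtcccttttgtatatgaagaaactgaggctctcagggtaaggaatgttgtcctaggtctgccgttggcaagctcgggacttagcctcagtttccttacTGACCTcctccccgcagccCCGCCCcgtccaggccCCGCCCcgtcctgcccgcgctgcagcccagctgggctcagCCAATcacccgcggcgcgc

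The Etfb window held 2 CCAAT matches and none of the others. Echs1 and Cpt1a each held a half-site and 2 GC-rich boxes, and Cpt1a a CCAAT match as well, while Acads held 1 GC-rich box. The table had a window for 28 of the 34 members, 32 windows in all. The half-site was in 8 of those 32 (25%) and in 14% of all 32851 windows, among them Acadm, Acadvl, Cd36, Plin2, Plin5 and Ucp3. The GC-rich box was in 19 (59.4%) against 32.7% of all windows, CCAAT in 15 (46.9%) against 33.8%, and the TATA box in 1, that of Acacb, against 12.4%. The direct repeat and the ERR element, which contain the half-site, were in none of the 32 windows and in 0.0335% and 0.387% of all. A match is a description of the letters in this window, and distal sites were not searched.

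Among the 6 genes of uptake and intracellular binding none was called in either mutant. Lpl, the lipase that frees fatty acids from circulating triglyceride, had control arrays at 13.03, 13.03, 12.96 and 12.99. Its R140Q arrays were at 12.64, 12.91, 12.54 and 12.81 and its R172K arrays at 12.77, 12.78, 12.88 and 12.44. Every mutant array lay below every control array, with differences of -0.28 ± 0.10 (SE, limma adjusted p = 0.165) in R140Q and -0.29 ± 0.10 (adjusted p = 0.0799) in R172K.

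Slc27a1, the fatty acid transport protein FATP1, had controls at 10.56, 10.58, 10.48 and 10.57 against R140Q arrays at 10.01, 10.45, 9.93 and 10.03. These groups did not overlap, with a difference of -0.45 ± 0.18 (SE, limma adjusted p = 0.223). The R172K arrays, at 10.20, 10.49, 10.64 and 9.62, spanned the control range, and the difference was -0.31 ± 0.18 (adjusted p = 0.307). Array R172K 4 was the lowest of all 12 for this gene.

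Cd36, the main sarcolemmal fatty acid translocase, had controls at 12.56, 12.59, 12.69 and 12.66 and R140Q arrays at 12.61, 12.79, 12.51 and 12.67. Its R172K arrays were at 12.98, 12.86, 12.89 and 12.58. Arrays 1 to 3 of R172K lay above every control and R172K 4 lay within the control range, for a difference of 0.20 ± 0.09 (SE, limma adjusted p = 0.161). Without R172K 4 the difference was 0.28 (limma adjusted p = 0.0325), in a fit that called 10% of all genes. That array was picked out by its value, so this p is no test of a rise.

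Fabp5, a fatty acid binding protein of endothelium, macrophages and fat, had controls at 8.01, 8.12, 8.17 and 7.96 and R140Q arrays at 8.32, 8.39, 8.50 and 8.26. Every R140Q array was above every control, by 0.30 ± 0.12 (SE, limma adjusted p = 0.195), and R172K arrays at 8.17, 8.09, 8.50 and 8.66 gave 0.29 ± 0.12 (adjusted p = 0.127). A second Fabp5 probe set gave 0.30 and 0.27. Fabp3, the heart form, ranged from 13.00 to 13.12 in control, 13.00 to 13.14 in R140Q and 13.08 to 13.22 in R172K, and its 2 probe sets differed in sign: 0.03 and -0.03 in R140Q, 0.07 and -0.12 in R172K. Fabp4, the form of adipocytes and endothelium, differed by 0.08 ± 0.11 (SE, limma adjusted p = 0.774) in R140Q and by 0.20 ± 0.11 (adjusted p = 0.266) in R172K.

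Of the 3 measured genes of the carnitine shuttle, Cpt1a rose and Cpt2 fell in R172K hearts. Cpt1a, the liver-type outer transferase that makes acylcarnitine and is the minor form of adult heart, had controls at 9.52, 9.57, 9.40 and 9.62. Its R172K arrays were at 9.98, 10.07, 10.24 and 9.69, all above the controls, and it rose by 0.47 ± 0.11 (SE, limma adjusted p = 0.0162), 1.39-fold. Its R140Q arrays were at 9.52, 9.26, 9.24 and 9.20, the last 3 of them below every control, with a difference of -0.22 ± 0.11 (adjusted p = 0.34).

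Cpt1a was also the only member called between the mutants, 0.69 ± 0.11 higher in R172K than in R140Q (SE, limma adjusted p = 0.0228), 1.61-fold, with no overlap of the groups. The R172K call against control held with each single array left out, but ended without control 3, R172K 3 and R140Q 4, which were high in atrial or lung markers, at 0.35 (adjusted p = 0.0646). The call between the mutants ended in a fit of only the 8 mutant arrays (adjusted p = 0.0839) and without any 1 of R140Q 1, 3 or 4 or R172K 1 or 2, where the adjusted p rose to as much as 0.0838. It also ended with the replicate number as a block (limma adjusted p = 0.0657).

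Cpt2, the inner transferase that turns acylcarnitine back into acyl-CoA, had controls at 11.13, 11.31, 11.26 and 11.43. Its R172K arrays were at 10.06, 10.11, 11.10 and 10.09, so 3 arrays lay more than 1 log2 unit below the lowest control and R172K 3 just below it. Cpt2 fell by 0.94 ± 0.23 (SE, limma adjusted p = 0.019), 1.92-fold. The R140Q arrays, at 11.02, 11.40, 10.47 and 10.97, gave -0.32 ± 0.23 (adjusted p = 0.55). The R172K call ended without control 2 (adjusted p = 0.0507), control 4 (0.0507), R172K 1 (0.0641) or R172K 2 (0.0554). Slc25a20, the carnitine-acylcarnitine translocase between them, ranged from 10.38 to 10.84 in control, 10.32 to 10.98 in R140Q and 10.45 to 11.12 in R172K and was not called.

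The pair that sets malonyl-CoA, the inhibitor of the outer transferase, was not called in either mutant. Acacb, the mitochondrial acetyl-CoA carboxylase that makes it, differed by -0.16 ± 0.15 (SE, limma adjusted p = 0.665) in R140Q and by -0.28 ± 0.15 (adjusted p = 0.269) in R172K, where it ranged from 9.47 to 10.32 against 10.28 to 10.34 in control. Mlycd, the decarboxylase that removes it, differed by -0.08 ± 0.18 and -0.19 ± 0.18 (SE, limma adjusted p = 0.89 and 0.556).

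Of the 9 enzymes of the β-oxidation spiral 3 fell in R172K hearts (33.3%, against 6.78% of all genes) and none rose. The median differences of the 9 were -0.20 in R172K and -0.18 in R140Q. Echs1, the short-chain enoyl-CoA hydratase of the second step, had controls at 11.03, 11.24, 11.08 and 11.14 and R172K arrays at 10.56, 10.60, 10.76 and 10.31. All 4 R172K arrays were below all controls, and it fell by 0.56 ± 0.12 (SE, limma adjusted p = 0.0119). The R140Q arrays, at 10.61, 10.98, 10.39 and 10.81, also lay below all controls, with a difference of -0.42 ± 0.12 (adjusted p = 0.0928). Echs1 kept its R172K call under all 22 alternatives that kept the threshold.

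Acads, the short-chain acyl-CoA dehydrogenase, had controls at 10.64, 10.90, 10.58 and 10.77, R140Q arrays at 10.82, 10.77, 10.33 and 10.63, and R172K arrays at 10.07, 10.24, 10.41 and 9.80. The R172K arrays lay below all controls and the R140Q arrays overlapped them. Acads fell by 0.59 ± 0.14 in R172K (SE, limma adjusted p = 0.0153) and differed by -0.08 ± 0.14 (adjusted p = 0.831) in R140Q. Set against each other, the mutants differed by -0.51 ± 0.14, which missed the threshold (adjusted p = 0.0849). Without control 2 the R172K call had an adjusted p of 0.0507.

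Acadm, the medium-chain dehydrogenase, had controls at 12.78, 12.92, 12.78 and 12.74, R140Q arrays at 12.37, 12.75, 12.33 and 12.67, and R172K arrays at 12.34, 12.48, 12.66 and 12.18. The R172K arrays lay below all controls, and Acadm fell by 0.39 ± 0.11 (SE, limma adjusted p = 0.0429), against -0.28 ± 0.11 (adjusted p = 0.236) in R140Q. The R172K call was close to the threshold: it ended without any 1 control array and without R140Q 4, R172K 1, R172K 2 or R172K 4, with an adjusted p of up to 0.117. With all arrays it ended under quantile normalization (limma adjusted p = 0.0514) and with the replicate number as a block (0.06).

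The long-chain end of the spiral was not called. Acadvl and Acadl, the very-long- and long-chain dehydrogenases, differed by -0.10 ± 0.16 and 0.04 ± 0.11 in R172K (SE, limma adjusted p = 0.769 and 0.882) and by -0.13 and -0.06 in R140Q. Hadha and Hadhb, the subunits of the trifunctional protein that carries out the last 3 steps on long chains, differed by -0.05 ± 0.09 and -0.20 ± 0.11 in R172K (SE, limma adjusted p = 0.793 and 0.287). Hadhb arrays in R172K, from 11.91 to 12.36, lay below the controls, from 12.39 to 12.43. Hadh, the short-chain hydroxyacyl-CoA dehydrogenase, and Acaa2, the mitochondrial thiolase, differed by -0.16 ± 0.14 and -0.23 ± 0.16 (SE, limma adjusted p = 0.522 and 0.404). The 95% interval of the R172K difference ran from -0.20 to 0.27 for Acadl and from -0.24 to 0.14 for Hadha.

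The 3 auxiliary enzymes that unsaturated chains need were not called. Decr1, the dienoyl-CoA reductase, ranged from 11.02 to 11.34 in control and from 10.30 to 11.10 in R172K, a difference of -0.51 ± 0.22 (SE, limma adjusted p = 0.158), and differed by -0.36 ± 0.22 (adjusted p = 0.459) in R140Q. The enoyl-CoA isomerases Eci1 and Eci2 differed by -0.29 ± 0.22 and -0.07 ± 0.16 in R172K (SE, limma adjusted p = 0.442 and 0.847) and by -0.32 and -0.21 in R140Q.

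Electron transfer flavoprotein gave the smallest adjusted p among the members. Etfb, its β subunit, had controls at 12.58, 12.64, 12.58 and 12.60, R140Q arrays at 12.01, 12.43, 11.95 and 12.20, and R172K arrays at 11.81, 11.88, 12.29 and 11.61. Every mutant array lay below every control, while the 4 controls spanned 0.07. It fell by 0.70 ± 0.13 in R172K (SE, limma adjusted p = 0.00649), 1.63-fold, and differed by -0.46 ± 0.13 in R140Q (adjusted p = 0.0947). The R172K call held under all 22 alternatives that kept the threshold. In R140Q an adjusted p under 0.05 came up in 4 alternatives, such as 0.0266 with only the 8 arrays of those groups.

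Etfa, the α subunit that pairs with Etfb, ranged from 11.29 to 11.32 in control, 10.84 to 11.37 in R140Q and 10.76 to 11.29 in R172K, for differences of -0.21 ± 0.12 (SE, limma adjusted p = 0.412) and -0.31 ± 0.12 (adjusted p = 0.114). Etfdh, the oxidoreductase that hands the electrons to ubiquinone, differed by -0.18 ± 0.13 and -0.24 ± 0.13 (SE, limma adjusted p = 0.551 and 0.29). All 3 electron transfer genes were negative in both mutants, and 1 of the 3 was called.

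**Figure D3:**
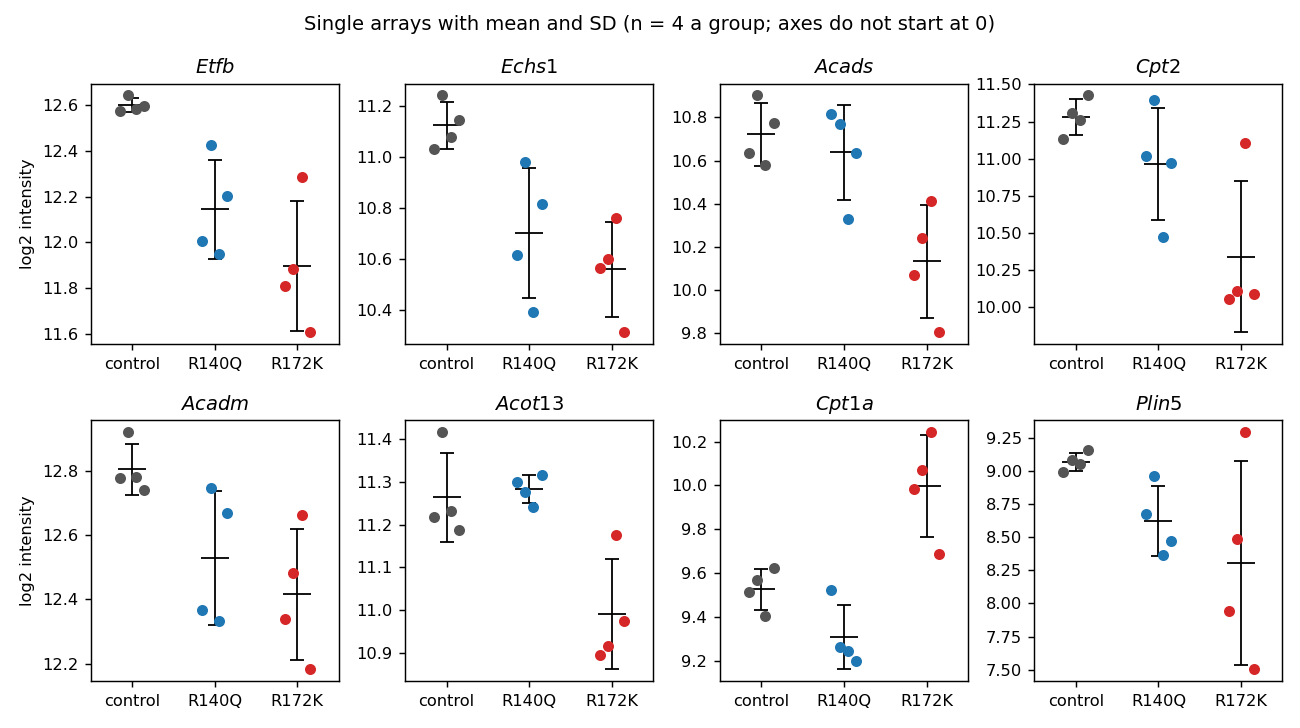
Log2 intensity of single arrays in control, R140Q and R172K hearts for the 7 called members and Plin5, with mean and SD (n = 4 a group). Etfb and Echs1 have every mutant array below every control. Cpt2 and Plin5 have R172K 3 apart from the other R172K arrays, and Cpt1a is above control in every R172K array.

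Among the thioesterases, which cut acyl-CoA back to free fatty acid, Acot13 fell in R172K hearts. Its controls were at 11.22, 11.42, 11.23 and 11.19, its R140Q arrays at 11.30, 11.28, 11.24 and 11.32, and its R172K arrays at 10.90, 10.92, 11.18 and 10.97. The R172K arrays lay below all arrays of both other groups, though R172K 3 did so by a narrow margin against control. The fall was 0.27 ± 0.07 (SE, limma adjusted p = 0.0308), while R140Q differed by 0.02 ± 0.07 (adjusted p = 0.936) and the mutants from each other by -0.29 ± 0.07 (adjusted p = 0.0723). The R172K call against control ended without control 1, 2 or 3, without R172K 1, 2 or 4, and in a fit of only the control and R172K arrays, with an adjusted p of up to 0.094. It also ended with the replicate number as a block (limma adjusted p = 0.0664).

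Acot1, the cytosolic thioesterase, and Acot2, its mitochondrial relative, have closely similar sequences, so signal could be shared between their probes and their values are uncertain. Acot2 ranged from 11.72 to 11.87 in control, 11.05 to 12.10 in R140Q and 11.17 to 12.18 in R172K. Acot1 ranged from 6.70 to 6.99, 6.03 to 6.80 and 6.12 to 7.28. Neither was called in any comparison. Ucp3, the mitochondrial uncoupling protein of muscle, had controls at 8.41, 8.16, 8.84 and 8.43, R140Q arrays at 8.41, 8.65, 7.21 and 7.91, and R172K arrays at 7.73, 8.0, 10.21 and 7.18. Array R172K 3 was the highest of the 12 and R172K 4 the lowest, and the difference of -0.18 ± 0.52 (SE, limma adjusted p = 0.875) had a wide interval, from -1.31 to 0.95.

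None of the 4 genes of lipid droplets and lipolysis was called. Plin5, the droplet coat protein of oxidative muscle that tethers droplets to mitochondria, had controls at 8.99, 9.08, 9.05 and 9.15, R140Q arrays at 8.68, 8.96, 8.37 and 8.47, and R172K arrays at 7.94, 8.48, 9.29 and 7.51. In R172K, 3 arrays lay below all controls and R172K 3 above them, for a difference of -0.76 ± 0.29 (SE, limma adjusted p = 0.101). Without R172K 3, the array that opposed the fall, it was -1.09 (limma adjusted p = 0.00224), in a fit that called 20.9% of all genes. Because that array was picked out by its value, this p is no test of the fall. The R140Q arrays lay below all controls, with a difference of -0.45 ± 0.29 (limma adjusted p = 0.483).

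Pnpla2, the adipose triglyceride lipase that opens triglyceride breakdown, ranged from 10.90 to 11.14 in control, 10.85 to 11.06 in R140Q and 10.50 to 11.32 in R172K. It differed by 0.08 ± 0.15 in R172K (SE, limma adjusted p = 0.796). Without R172K 4, the lowest array, it differed by 0.27 (limma adjusted p = 0.0424), in a fit that called 10% of all genes. As that array was picked out by its value, this p is no test of a rise. Lipe, the hormone-sensitive lipase, differed by -0.13 ± 0.19 in R140Q and 0.11 ± 0.19 in R172K (SE, limma adjusted p = 0.817 and 0.778). Plin2, the general droplet coat protein, differed by -0.07 ± 0.13 and 0.09 ± 0.13 (SE, limma adjusted p = 0.865 and 0.747).

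Between the mutants 1 of 34 members was called, Cpt1a, higher in R172K, where 0.487% of all genes were called higher and 0.998% lower. The median difference was 0.03, against -0.0032 over all genes. Its sign turned to -0.05 without R140Q 3 or without R172K 3, and it reached 0.14 without R140Q 2 and 0.15 without R172K 4. There were 4 members with an unadjusted p under 0.05, 3 lower and 1 higher in R172K, against a background of 16.3%. Groups did not overlap for Cpt1a, higher, and Acot13, lower, against 3.07% and 4.64% of all genes. Without R172K 3 the fit called 4 members, with Cpt2 at -0.88 (limma adjusted p = 0.00823), Acads at -0.60 (0.0195) and Acot13 at -0.36 (0.00842) added to Cpt1a, where 7.91% of all genes were called in either direction.

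The members varied more among mutant hearts than among controls, and they varied together. Their median SD was 0.078 in control, 0.223 in R140Q and 0.267 in R172K, while over all genes it was 0.104, 0.106 and 0.141. The SD was larger than in control for 31 of 34 members in R140Q and 33 of 34 in R172K, against 10292 and 13435 of 19937 genes. Among the 4366 genes at least as bright as the 4th dimmest member, the median SD was 0.094, 0.106 and 0.165. Of those, 2459 in R140Q and 3358 in R172K had a larger SD than in control. Array R140Q 3 was the lowest of its group for 29 members and R140Q 2 the highest for 30. Array R172K 4 was the lowest of its group for 30 members and R172K 3 the highest for 26. This order of the arrays was not counted over all genes.

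The median of the 34 members relative to the control mean was -0.20, 0.08, -0.42 and -0.19 in R140Q arrays 1 to 4, and -0.15, -0.0005, 0.07 and -0.55 in R172K arrays 1 to 4. It lay between -0.03 and 0.02 in controls. The 15 enzymes and electron carriers of mitochondrial oxidation alone gave -0.25, 0.08, -0.46 and -0.27 in R140Q and -0.21, -0.10, -0.03 and -0.58 in R172K. Below the lowest control were 22, 6, 30 and 23 members in the R140Q arrays, beside 24.6%, 24.8%, 26.6% and 23.2% of all genes, and 18, 15, 8 and 27 in the R172K arrays, beside 30.9%, 29.5%, 22.3% and 35.6%. Arrays R140Q 2 and R172K 3 were the mutant arrays with a member median above the control mean.

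**Figure D4:**
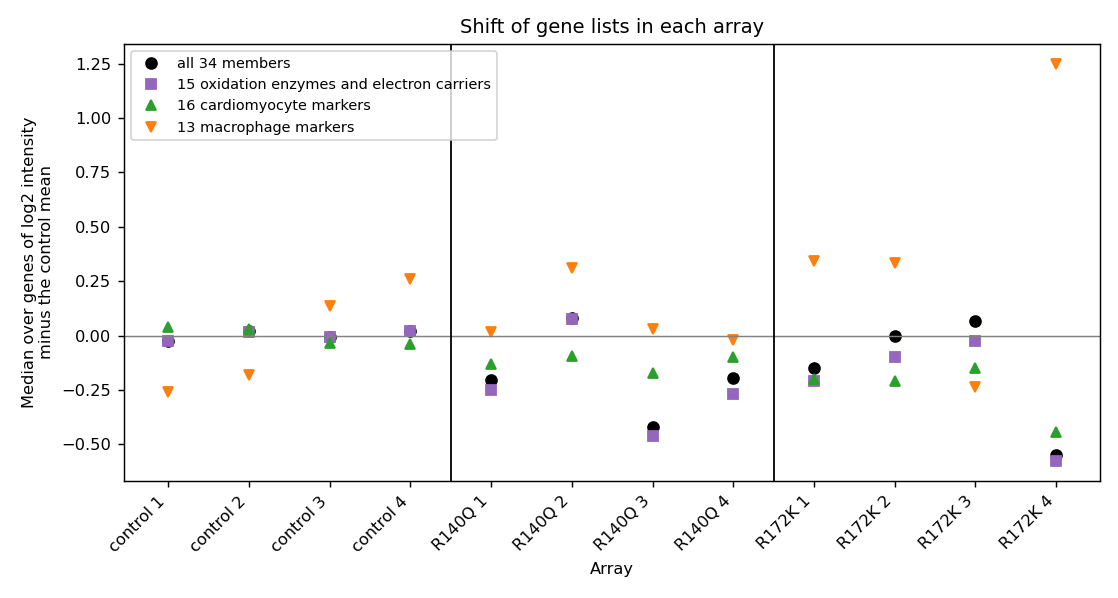
Median over a list's genes of log2 intensity minus the control mean, for each of the 12 arrays: all 34 members (circles), the 15 mitochondrial oxidation members (squares), 16 cardiomyocyte markers (upward triangles) and 13 macrophage markers (downward triangles). R172K 4 has the lowest member median, -0.55, and the highest macrophage median, 1.25.

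Markers of cell types moved with the groups as well. Over all genes 6.23% were called higher and 6.78% lower in R172K, against 1.08% and 1.12% in R140Q. Cardiomyocyte markers fell in 7 of 16 genes in R172K and 0 of 16 in R140Q, with medians of -0.26 and -0.11, and their summed level (log2) was 16.92 to 17.01 in control, 16.81 to 16.88 in R140Q and 16.53 to 16.85 in R172K. Fibroblast markers rose in 6 of 12 genes in R172K and 0 in R140Q, with summed levels of 13.65 to 14.10 in control, 13.72 to 14.23 in R140Q and 13.94 to 14.81 in R172K. The 6 were Pdgfra, Col1a1, Col1a2, Col3a1, Fbln2 and Postn. The rest were not called: Lum, Tcf21 and Dcn differed by 0.19, 0.12 and 0.10, and Dpt, Gsn and Ddr2 by -0.35, -0.32 and -0.10. Macrophage markers rose in 3 of 13 genes in R172K and 0 in R140Q, with summed levels of 11.79 to 12.36, 12.06 to 12.31 and 11.88 to 13.26. Endothelial markers rose in 3 of 13 genes in R140Q and 2 in R172K, with summed levels of 13.77 to 13.84, 14.05 to 14.16 and 13.78 to 14.08. The called genes were Cdh5, Kdr and Esam in R140Q, and Kdr and Esam in R172K. In R172K Aqp1, Eng and Flt1 went the other way, at -0.47, -0.09 and -0.02, and were not called. Between the mutants Aqp1 was called lower in R172K, at -0.71 (limma adjusted p = 0.0466), where 0.998% of all genes were called lower. In whole hearts, fewer cells of a type and less RNA per cell cannot be told apart, and the part of these shifts in the members' values was not tested.

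Fat and tissue carried over at dissection were read from their own markers. Of 10 adipocyte markers 1 was called in each mutant, Cidea, while Adipoq lay between 4.75 and 5.71 and Plin1 between 6.13 and 7.00 in all 12 arrays. Array R140Q 4 had Sftpc, a lung surfactant protein, at 11.6, against 4.68 to 5.51 in control and R172K arrays, and its lung marker median was 1.49 above control. Of the 10 lung markers 1 was called, lower, in each mutant, namely Hopx, which cardiomyocytes also make. Atrial markers ranged widely, with Myl7 at 12.5 in control 3 and 11.4 in R172K 3. Over the groups Myl7 was at 6.18 to 12.49 in control, 5.23 to 6.04 in R140Q and 7.43 to 11.36 in R172K. Every R140Q array lay below every control for Myl7, a difference of -3.52 (limma adjusted p = 0.109). The summed level of the atrial markers was 13.03 to 15.04 in control, 11.47 to 13.57 in R140Q and 13.79 to 14.54 in R172K. In R140Q that sum moved with Nppa, at 12.74, 7.85, 13.20 and 12.81 in arrays 1 to 4. Of 11 atrial markers 1 was called lower in R140Q and 0 in R172K. Between the mutants 1 was called, Myl4, 3.52 higher in R172K (limma adjusted p = 0.0458), where 0.487% of all genes were called higher. The median of the 11 was 0.98 higher in R172K than in R140Q. Per array, their median relative to control ran from -1.03 to -0.93 in R140Q and from -0.08 to 0.79 in R172K. The part of this in the members' values was not tested. Without control 3, R172K 3 and R140Q 4, 7 members were called lower and 0 higher in R172K and 0 in R140Q. That fit called 17.3% of all genes in R172K, 1624 lower and 1818 higher, and 1.78% in R140Q.

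Nppb, the ventricular natriuretic peptide, was 2.15 higher in R140Q and 1.89 higher in R172K (log2, limma adjusted p = 0.00394 and 0.00201). The probe set of Idh2 itself differed by -0.30 and -0.36 (log2, limma adjusted p = 0.301 and 0.109), with every mutant array below every control. Of all genes, 7.04% in R140Q and 8.72% in R172K had such a gap. Whether its probes tell alleles apart was not examined, so it is no check of the genotype. Array medians of the intensity ran from 74.78 to 78.04.

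The other genes of fatty acid metabolism were counted in 7 lists with 145 measured genes. In R172K 40 were called, 12 higher (8.28%, against 6.23% of all genes) and 28 lower (19.3%, against 6.78%). In the fit of the 9968 brighter genes 53 of 120 were called, 13 higher and 40 lower, where 27.8% of all those genes were. In R140Q 4 were called, 1 higher (0.69%, against 1.08%) and 3 lower (2.07%, against 1.12%), shares close to the background. With single arrays left out the R172K count fell to 20 without control 2 or R172K 1, 22 without control 4, 23 without control 1 and 26 without R172K 2, and was 62 without R172K 3. Of all genes, 7.42%, 6.66%, 9.14%, 7.82%, 8.75% and 20.9% were called in those fits, in that order. The R140Q count was 13 without R172K 3, 15 without R172K 4, and 1 or 2 without any 1 of the controls, of R140Q 1, 3 or 4, or of R172K 1 or 2. Without R172K 3 or R172K 4, 5.09% and 4.93% of all genes were called in R140Q.

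Among 19 transcriptional regulators 5 fell (26.3%) and 1 rose (5.26%) in R172K, and none was called in R140Q. Of all genes, 6.78% were called lower and 6.23% higher in R172K. Ppara, the receptor that drives many of the members, fell by 0.96 ± 0.19 (SE, limma adjusted p = 0.00746), its partner Rxra by 0.41 ± 0.08 (adjusted p = 0.00772) and the coactivator Ppargc1b by 0.35 ± 0.09 (adjusted p = 0.0196). Mlxipl, the carbohydrate-responsive factor ChREBP, fell by 0.78 ± 0.15 (limma adjusted p = 0.00679). The 1 that rose was Hif1a, the hypoxia-inducible factor, by 0.69 ± 0.18 (limma adjusted p = 0.0272), named here after its value was seen, and that call held in 14 of 22 alternatives. Of 11 PPARα target genes outside the members 1 was called in R172K (9.09%), a share near the background. It was Retsat, a retinol saturase, which fell by 1.12 ± 0.24 (limma adjusted p = 0.0102), and the median of the 11 was 0.02.

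The list of other mitochondrial oxidation and carnitine genes had 10 lower (37%) and 2 higher (7.41%) of 27 in R172K, with a median of -0.35. Of all genes, 6.78% were called lower and 6.23% higher. The list is broader than its name, so its count is not one of fatty acid oxidation alone. It held Mecr, a reductase of mitochondrial fatty acid synthesis, which fell by 0.72 ± 0.15 (SE, limma adjusted p = 0.011). It also held Echdc1, Echdc2 and Echdc3, enoyl-CoA hydratase domain proteins, which fell by 0.53, 0.47 and 0.72 (limma adjusted p = 0.00858, 0.0103 and 0.00944). In R140Q Echdc2 fell by 0.61 ± 0.10 (limma adjusted p = 0.0112) and held under all 22 alternatives that kept the threshold. Acadsb, a short/branched-chain dehydrogenase named here after its value was seen, was the other called gene of that list in R140Q, where it fell by 0.59 ± 0.14 (limma adjusted p = 0.0469). That call held in 9 of 22 alternatives, with an adjusted p of up to 0.141. The 1 gene of the 145 called between the mutants, Acad11, also named after its value was seen, was 0.93 ± 0.21 lower in R172K (limma adjusted p = 0.0492). Its call held in 5 of 22 alternatives, with an adjusted p of up to 0.157, and of the single arrays left out it held without R172K 3.

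Peroxisomal oxidation had 5 of 18 genes lower in R172K (27.8%, against 6.78% of all genes) and none higher. Scp2, a sterol carrier with a thiolase form, fell by 0.39, Pex7, a peroxisomal import receptor, by 0.35, Amacr, a racemase of branched chains, by 0.49, and Abcd2, a very-long-chain acyl-CoA transporter, by 0.51 (limma adjusted p = 0.00905, 0.0135, 0.0148 and 0.0352). Abcd2 fell in R140Q by 0.66 ± 0.14 (limma adjusted p = 0.039), and both its calls ended under 9 of 22 alternatives. Entry and activation genes had 2 of 20 higher (10%) and 1 lower (5%) in R172K, shares near the 6.23% and 6.78% of all genes. Acsl4, an acyl-CoA synthetase that prefers arachidonate, rose by 0.50, Fabp7 by 0.44 and Vldlr, a lipoprotein receptor, fell by 0.44 (limma adjusted p = 0.0289, 0.0491 and 0.0468). Of these calls Acsl4 held in 15 of 22 alternatives, Vldlr in 8 of 22 and Fabp7 in 6 of 21.

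Synthesis and storage genes moved in both directions. Of 22 synthesis and desaturation genes 5 rose (22.7%) and 1 fell (4.55%) in R172K, against 6.23% and 6.78% of all genes. Acaca, the cytosolic acetyl-CoA carboxylase, rose by 1.24 ± 0.23 (SE, limma adjusted p = 0.00603), Prkag2, a regulatory subunit of AMP-activated kinase, by 0.60 ± 0.15 (adjusted p = 0.0208) and Acly, ATP citrate lyase, by 0.46 ± 0.12 (adjusted p = 0.0295), while Fasn, the fatty acid synthase, fell by 0.36 ± 0.11 (adjusted p = 0.0447). The Fasn call held in 9 of 22 alternatives, that of Acly in 14 and that of Acaca in all 22.

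Of 28 genes of triglyceride synthesis and droplets 2 rose (7.14%) and 5 fell (17.9%) in R172K, against 6.23% and 6.78% of all genes. The share that rose is near the background. Cidea, a droplet fusion protein best known from fat, rose by 1.01 ± 0.15 (SE, limma adjusted p = 0.0021) in R172K, and by 0.62 ± 0.15 (adjusted p = 0.049) in R140Q, where the call held in 8 of 22 alternatives. Dgat1, which adds the last acyl chain to triglyceride, rose by 0.65 ± 0.12 (limma adjusted p = 0.00603). Fitm1, a droplet-forming protein of muscle, fell by 1.13 ± 0.20 (limma adjusted p = 0.00517), and Pnpla8, a mitochondrial and peroxisomal phospholipase, by 0.40 ± 0.10 (limma adjusted p = 0.0175).

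**Figure D5:**
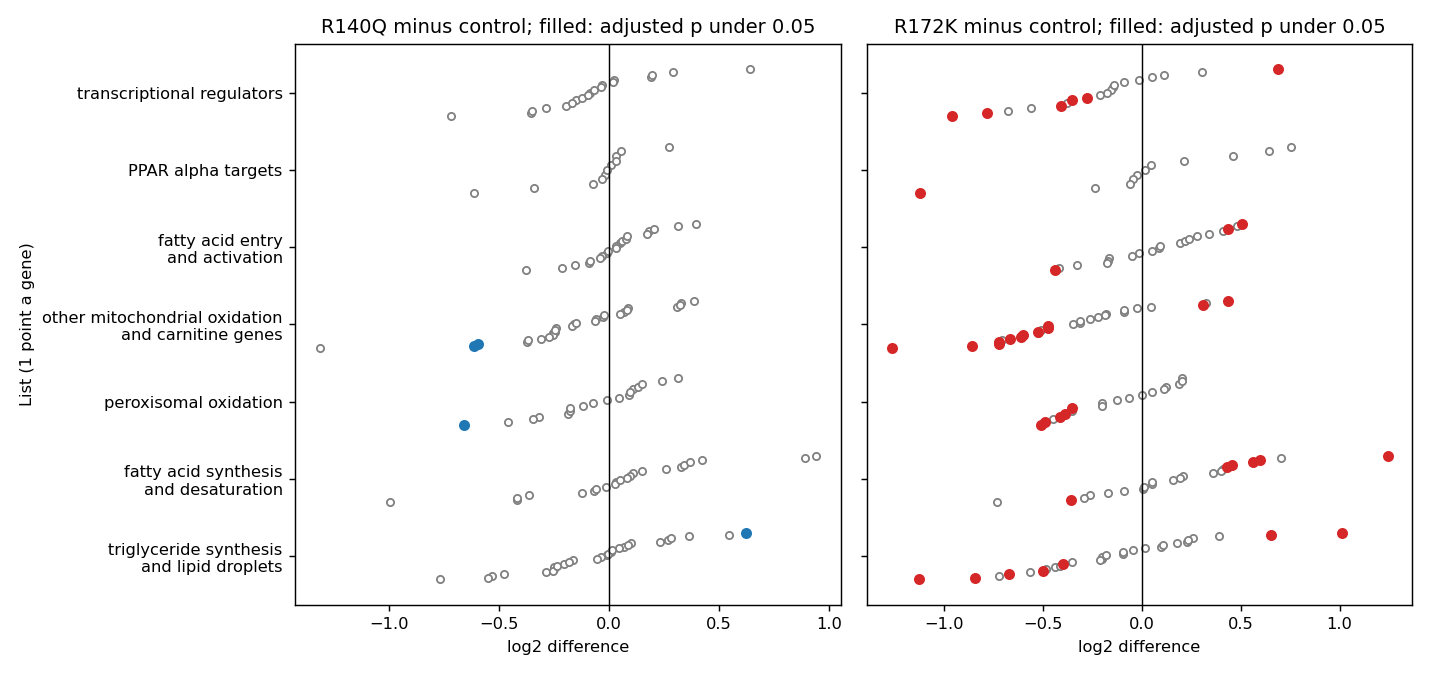
Log2 difference from control of each measured gene of the 7 related lists in R140Q (left) and R172K (right), 1 point a gene. Filled points passed an adjusted p of 0.05, 4 in R140Q and 40 in R172K. In R172K most filled points of the other mitochondrial oxidation list, 10 of 12, lie left of 0. That list is broader than its name and includes Mecr of fatty acid synthesis.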

How the data were processed

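Total heart RNA was hybridised to 12 arrays. The deposited values are RMA intensities, per the submitters' processing notes for the method, and are on a linear scale, so log2 was taken here although a log2 table had been planned for. RMA normalizes between arrays, so shifts shared by all genes are not seen. Of 34760 probe sets, 21640 had a single gene symbol, 1321 several and 11799 no listing. The brightest of each gene was kept, giving 19937 genes.

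Groups were compared by limma 3.58.1 under R 4.3.3 (eBayes after lmFit on group means of 4 arrays each, with a residual df of 9 and a prior df of 3.54), two-sided, with Benjamini-Hochberg adjustment over all genes, and the fit was tested on simulated data. The number of arrays limits the precision. Members and lists were chosen with earlier results of these data known. All members were named and, of the related lists, up to 4 called genes a list by smallest p. The closest 2 arrays differed by a median of 0.099 (log2), so none was counted as a repeat of another. Same-numbered arrays correlated from -0.336 to 0.152 in their deviations, with 2 of 12 pairs over 0.1, so replicate numbers were not used as pairs. The alternatives were another set of arrays, a replicate block, other probe sets, a filter on dim genes, other scalings, log2(intensity + 16), another variance model, array weights, a threshold of 0.01, and arrays left out.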

Additional observations from a re-analysis of the deposited data

Results flagged for a closer look

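Of 183 groups of 4 arrays tested for a single array far from the other 3, 10 stood out, where chance gives about 1 in 20. Cpt2 was at 11.10 in R172K 3 against 10.06 to 10.11 in the other R172K arrays. Pnpla2 was at 10.50 in R172K 4 against 11.22 to 11.32. Fabp3 was at 13.00 in R140Q 3 against 13.12 to 13.14. Slc25a20 was at 10.38 in control 1 against 10.77 to 10.84, and Eci1 at 11.15 in control 3 against 11.26 to 11.28. Among related genes, Vldlr was at 11.33 in control 1 against 11.21 to 11.22, Mecr at 7.71 in R140Q 3 against 8.27 to 8.34, Prkag2 at 8.75 in control 3 against 8.13 to 8.14, Acly at 7.93 in R172K 3 against 8.33 to 8.38, and Acadsb at 9.17 in R172K 4 against 9.63 to 9.72. Cpt1a differed from control by 0.69 more in R172K than in R140Q (limma adjusted p = 0.0228). For Acad11 the difference between R172K and R140Q was -0.93 (limma adjusted p = 0.0492).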

How the results depend on the processing

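No called value changed sign under any alternative run. Member counts for R140Q against control (0), R172K against control (7) and R172K against R140Q (1) were 4, 6 and 0 with only the 8 arrays compared, 4, 11 and 4 with array weights, and 0, 1 and 0 at a threshold of 0.01. Of all genes, 6.73%, 8.97% and 0.0451% were called with only the 8 arrays, and 8.28%, 22.5% and 8.9% with weights. At 0.01 the shares were 0.366%, 3.88% and 0.00502%. The count between the mutants was 2 without the dimmer genes and 3 without the 3 arrays high in atrial or lung markers. In those fits 4.5% and 4.04% of all tested genes were called. Single arrays left out gave 0 to 2, 3 to 11 and 0 to 4, beside 0.502% to 5.09%, 6.66% to 20.9% and 0.00502% to 7.91% of all genes. Quantile normalization gave 0, 6 and 1 members, beside 2.32%, 13.4% and 1.3% of all genes. The replicate block gave 0, 5 and 0 members and 1, 31 and 0 related genes, beside 0.983%, 10.1% and 0.0552% of all genes. Of 12 arrays 3 were closest to arrays of their own number, and the numbers do not pair the arrays. Related counts (4, 40 and 1) were 21 for R140Q and 0 between the mutants with only the 8 arrays, 24, 66 and 21 with weights, 0, 10 and 0 at 0.01, and for R140Q 8 without the dimmer genes and 2 with log2(intensity + 16). The shares of all genes given above hold for the same fits. For R140Q they were 5.69% without the dimmer genes and 2.26% with log2(intensity + 16). Between the mutants the related counts were 6 without the dimmer genes, 5 with centred arrays, 15 without the 3 arrays, and 0 with the lowest-mean probe set, with every probe set, with quantile normalization and with trend and robust variance. Of all genes, 2.05% were called there with centred arrays, 1.26% with the lowest-mean probe set and 0.898% with trend and robust variance. Single arrays left out gave 1 to 15, 20 to 62 and 0 to 22. Centring moved the R140Q calls over all genes from 216 higher and 223 lower to 288 and 185. The R140Q counts without R172K 3 or R172K 4 moved at unchanged differences from control, through the shared estimate of the spread. What lay behind the other moves was not tested. Signal over background was not given per probe set, so no limit of detection is stated.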
